A study of Mus musculus with 4 samples.

Results

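Cytosine methylation (5mC) at CpGs that were almost fully methylated in wild-type cells and lower in Hdac6-deficient cells was examined in mouse LSK cells. LSK cells lack mature lineage markers, carry high Sca-1 and c-Kit, and include the haematopoietic stem cells of the bone marrow. The set was chosen by measured values and position in the authors' deposited table of 5mC differences, under 3 conditions: chromosomes 1 to 19, a wild-type level of at least 90% with a lower knockout level, and absence of the same position from the authors' deposited table of 5-hydroxymethylcytosine (5hmC) differences. It holds 16302 of the 53206 listed 5mC positions, or 32.3% of the 50428 on chromosomes 1 to 19. The controls have the genotype WT and the other group HDAC6 KO, and each genotype has 1 bisulfite library (numbered 1) and 1 oxidative bisulfite library (numbered 2), all from bone marrow. The sources used here do not give strain, age, sex, the deleted part of Hdac6 or the number of animals per library. The material is genomic DNA, so the LSK label could not be set against marker expression and the loss of HDAC6 could not be checked. Hdac6 is X-linked and so outside the set.

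Most CpGs of mammalian genomes carry 5mC on nearly all DNA copies, and CpG-rich gene starts are the main exception. DNMT3A and DNMT3B place the mark and DNMT1, guided by UHRF1, copies it after replication. TET enzymes oxidise 5mC to 5hmC using 2-oxoglutarate, which isocitrate dehydrogenases make. HDAC6 is a mainly cytoplasmic lysine deacetylase, and the title of the study ties it to IDH1. Bisulfite reads 5mC and 5hmC alike, whereas oxidation before bisulfite leaves 5mC alone readable. The titles name the bisulfite libraries 5mc and the oxidative bisulfite libraries 5hmc, so a listed 5mC level may include 5hmC. Because each genotype has 1 library per assay, no difference below has a replicate check, p and q are the authors' own, and the read depth behind a level is unknown. Where 2 levels follow each other, the wild-type level comes first.

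The bases under these positions could be read where RefSeq promoter windows of GRCm38 (250 bases before to 50 after a gene start) cover them. Of the 16302 positions, 63 lay in 63 such windows of 61 genes, and all 63 were the C of a CpG in that build. Sequence before the start is printed to show the CpG setting of these sites: from the 2 windows with more than 1 position, from 4 of the 6 next windows by the authors' p (the other 2 have the site at or past the start), and from 3 blood genes chosen after their values were seen (Cd22, Ly86, Tspo2). It is given 5′ to 3′ on the gene's strand, with the CpGs of the set in capitals.
Kif2b, chr11:91577718-91577805, minus strand: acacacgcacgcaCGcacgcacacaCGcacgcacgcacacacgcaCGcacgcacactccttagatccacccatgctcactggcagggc
Map10, chr8:125669568-125669737, plus strand: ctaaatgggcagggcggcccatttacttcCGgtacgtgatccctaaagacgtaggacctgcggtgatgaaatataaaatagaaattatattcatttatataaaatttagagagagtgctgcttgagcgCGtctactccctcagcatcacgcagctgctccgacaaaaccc
Gm41230, chr14:99521660-99521741, plus strand: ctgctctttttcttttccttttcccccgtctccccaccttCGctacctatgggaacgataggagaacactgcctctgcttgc
Lcn12, chr2:25494100-25494161, minus strand: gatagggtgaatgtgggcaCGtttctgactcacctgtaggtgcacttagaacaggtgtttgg
Gm40361, chr12:31122210-31122291, minus strand: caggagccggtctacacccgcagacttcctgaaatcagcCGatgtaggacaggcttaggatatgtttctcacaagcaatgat
Gm41249, chr14:119797872-119797953, minus strand: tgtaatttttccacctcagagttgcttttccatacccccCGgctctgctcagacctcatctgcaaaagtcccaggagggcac
Cd22, chr7:30879097-30879178, minus strand: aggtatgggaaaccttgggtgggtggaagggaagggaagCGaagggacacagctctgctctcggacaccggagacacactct
Ly86, chr13:37345173-37345254, plus strand: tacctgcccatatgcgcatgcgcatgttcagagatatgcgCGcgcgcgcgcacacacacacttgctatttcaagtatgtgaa
Tspo2, chr17:48451502-48451579, minus strand: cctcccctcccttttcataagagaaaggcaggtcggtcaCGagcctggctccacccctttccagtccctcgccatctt

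The 3 CpGs of Kif2b, a kinesin gene of the mitotic spindle, lie in an alternating CA and CG repeat. That of Ly86 lies in a run of CG units followed by CA units. At Kif2b the authors' deposited table gave 98.3%, 93.4% and 92.3% in wild type against 84.6%, 75.3% and 74.0% in the knockout, at positions -204, -224 and -236 from the start. The 2 CpGs of Map10, a microtubule-associated protein gene, stood at 100% in wild type and at 33.3% and 41.7% in the knockout per the authors' deposited table. The Cd22 site, at the gene of an inhibitory B-cell receptor, was at 100% and 62.5% per the authors' deposited table. Ly86 encodes MD-1, a partner of the B-cell receptor RP105, and its site was at 100% and 80% per the authors' deposited table. Tspo2 encodes an erythroid membrane protein, and its site, at position -38 from the start, was at 100% and 50% per the authors' deposited table. Every site printed here had a q of 1 in that table.

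Levels in the whole set were mostly moderate losses from full methylation. Wild type was at exactly 100% at 11076 positions (67.9%), and the median knockout level over all 16302 was 64.3% (quartiles 50% and 75%). The median difference was -33.33 percentage points, the largest -100 and the smallest -10, which is also the smallest difference in either deposited table. Of the knockout levels, 8069 (49.5%) lay above 50% and up to 75%, 3726 above 75%, and 74 were at exactly 0. A fall of at least 50 points occurred at 3905 positions (23.95%), beside 16.5% of all listed positions on chromosomes 1 to 19, which include those that rose. Among all 30039 lower positions the share was 27.6%, so large falls were less frequent in the set, and it was 32.1% in the lower positions with a high wild-type level that were left out for a 5hmC entry. These values chose the set or come from the same contrast, so they are a description only. Just inside the threshold, at wild-type levels from 90% to under 91%, 421 positions had a median knockout level of 44.4%. Just outside, from 89% to under 90%, 197 lower positions had 50%. In the wider range from 88% to under 90%, 513 lower positions had 45.45%, close to the value inside.

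The same rule with the genotypes exchanged, a knockout level of at least 90% with a lower wild-type level and no 5hmC entry, found 10252 positions. The set high in wild type was thus 1.59 times as large, where 59.6% of all listed positions on chromosomes 1 to 19 were lower in the knockout. In that exchanged set the median difference was 29.98 points, and 17.98% rose by at least 50 points. The 5731 positions that met both level conditions but were left out for a 5hmC entry had a median difference of -40 points, beside -33.33 for the set. Which libraries gave each level is not known, so the share of the exclusion in that gap was not tested.

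**Figure D1:**
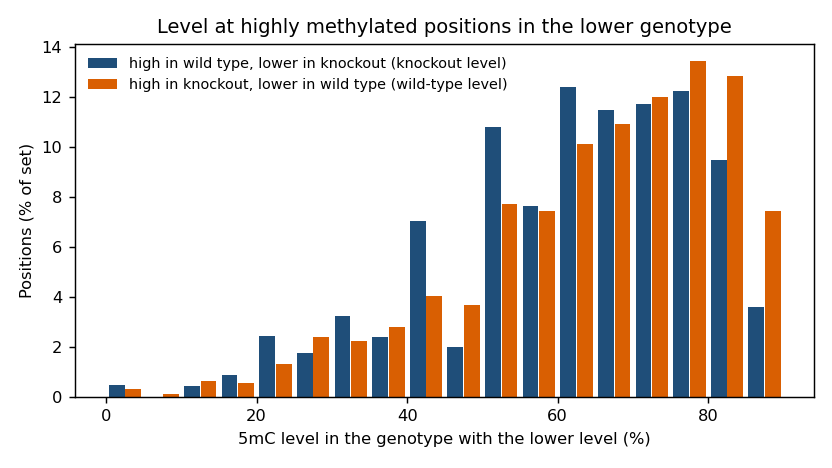
Distribution of the 5mC level in the genotype with the lower level, in bins of 5 percentage points, as percent of each set (16302 positions high in wild type, 10252 high in the knockout). Both distributions lie mostly between 40% and 90%, and few positions are at 0.

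Few positions had a small q. It fell under 0.05 at 3 of the 16302, was under 1 at 46 and was equal to 1 at 99.7% per the authors' deposited table. Over all positions of chromosomes 1 to 19, q was under 0.05 with a lower knockout level at 10 of 50428 (0.0198%) and in either direction at 33 (0.0654%). Of these 3, 2 lay in Spg11, the gene of spatacsin, a protein of lysosome recycling. Spg11 was at 97.4% and 58.8% at chromosome 2 position 122097989 (q = 0.0134) and at 97.3% and 56.95% at position 122098020 (q = 0.0167) per the authors' deposited table. The other was in Secisbp2l, a gene related to a selenoprotein translation factor, with 100% and 66.1% at chromosome 2 position 125766723 (q = 0.037 per the authors' deposited table). The Spg11 sites are 31 bases apart and may share reads.

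A change from 100% to 0% was listed at 54 positions, of which 25 lay inside genes, 1 near a gene end and 28 between genes. Their p ran from 3.8e-05 to 0.00794 in the authors' deposited table and their q was under 1 at 4. Read depth is not given, and levels of 100% and 0% may rest on few reads. These entries therefore do not show that methylation was fully absent. The smallest p inside a gene belonged to B3galt1, a glycosyltransferase gene, at chromosome 2 position 67856726 (q = 0.656 per the authors' deposited table). Grm7, a glutamate receptor gene, followed at chromosome 6 position 111321608 (q = 0.819 per the authors' deposited table).

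A smaller share of the set than of all listed positions lay near gene ends, as was also true of the 5hmC-listed positions with a high wild-type level. A gene end is here within 2000 bp of either end of a RefSeq protein-coding or long non-coding gene. In the set 11.6% of positions lay there (95% interval 11.1 to 12.05%), 43.5% deeper inside genes and 44.9% between genes. Of all listed positions on chromosomes 1 to 19, 15.9% lay at gene ends. The 5731 lower positions left out for a 5hmC entry had 12.06% there (11.2 to 12.9%), an interval that overlaps that of the set. The exchanged set had 13.8% at gene ends (13.1 to 14.5%), the lower positions with wild type under 90% had 19.8%, and the other higher positions 24.1%. Intervals are exact Clopper-Pearson, cover counting error only, and take neighbouring CpGs as independent. The share at gene ends was below that of the exchanged set on 16 of 19 chromosomes. The loss was a little larger between genes, with a median of -35.3 points, than near gene ends with -31.55 points.

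Gene starts gave a similar picture. Within 250 bp of a RefSeq gene start lay 0.626% of the set (0.51 to 0.759%), 0.663% of the lower positions left out for a 5hmC entry (0.47 to 0.909%), 0.946% of the exchanged set, 2.11% of the other lower and 2.70% of the other higher positions. More than 100000 bp from any start lay 21.1% of the set, 18.3% of those left out for a 5hmC entry, 18.85% of the exchanged set, 14.75% of the other lower and 12.9% of the other higher positions. Inside the promoter windows the frequency followed CpG density: 9.31 positions of the set were listed per 10000 CpGs in windows with 1 to 5 CpGs, 6.87 with 6 to 10, 1.1 with 11 to 20, and 0.141 with 21 or more. The exchanged set gave 9.63, 5.37, 1.38 and 0.141 per 10000 CpGs, close to the set at every density. Both rules ask for a level of at least 90% in 1 genotype, and the coverage of unlisted CpGs is not known.

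**Figure D2:**
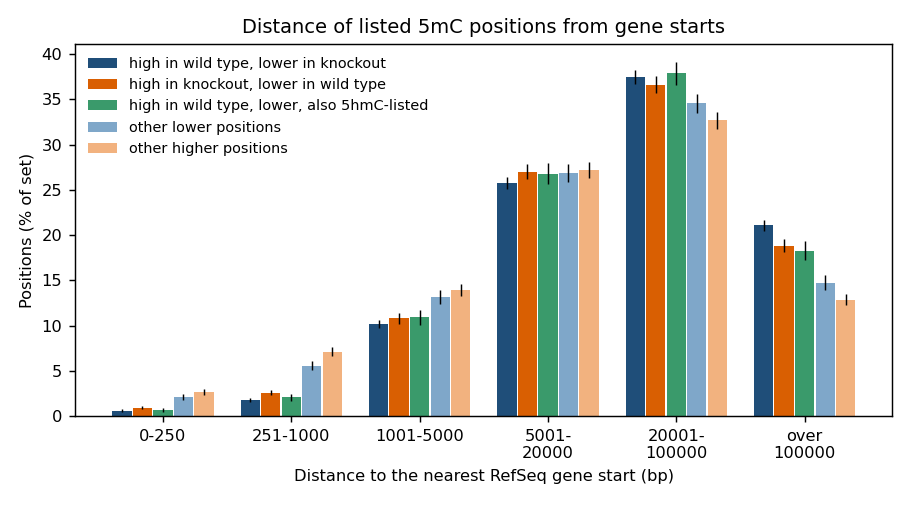
Distance of listed 5mC positions from the nearest RefSeq gene start in bp, as percent of each set; bars start at 0 and error bars are exact 95% intervals. Within 250 bp lie 0.626% of the set and 0.663% of the like positions with a 5hmC entry, against 2.70% of the other higher positions; beyond 100000 bp the 5 sets run from 21.1% to 12.9%.

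Factor motifs were searched in the 63 windows on both strands. The E-box letters CACGTG stood in 9.52% of these windows and in 7.14% of all 31396 autosomal windows. For the ETS core CCGGAA the shares were 6.35% of the 63 windows and 15.1% of all. The RUNX core TGTGGT was found in 17.5% and 16.7% of windows, respectively. A GATA factor form, AGATAA, was found in 12.7% and 11.2%. A CpG of the set itself lay within an E-box at 2 places and within an ETS core at 2, among them the Map10 site at position -221. The RUNX and GATA letters hold no CpG. These are matches of letters and not binding sites.

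Neighbouring CpGs within 100 bp were more often lower than listed positions farther away. Listed 5mC positions with a wild-type level under 90%, which the rule did not use, were lower in the knockout at 28.2% of 28384 positions on chromosomes 1 to 19. Within 50 bp of the set 47 of 66 were lower (71.2%, interval 58.8 to 81.7%), from 51 to 100 bp 34 of 62, and beyond 100 and up to 500 bp 29.87% of 308. CpGs this close can be read on the same DNA fragment, and how far shared reads account for the common direction was not tested.

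The 5hmC table showed the opposite direction beside the set. The rule removed only identical positions, and 401 positions of the set (2.46%) had another 5hmC-listed position within 100 bp. Of these nearest 5hmC positions 353 were higher in the knockout (88.03%, interval 84.4 to 91.04%), beside 64.3% of all 69937 listed 5hmC positions on chromosomes 1 to 19. Within 50 bp the share was 94.05% of 252, with a median 5hmC difference of 28.8 points. Beyond 100 and up to 500 bp it was 68.7%, and from there to 2000 bp 65.8%. Beside the exchanged set the share was 24.7% within 50 bp and 36.2% within 100 bp, and it was 65.4% between 500 and 2000 bp. The other lower positions had 85.3% within 100 bp and those left out for a 5hmC entry 90.9%, so the pattern was not limited to positions high in wild type. Which libraries gave each level of the 2 tables is not known, nor whether 5hmC levels were obtained by subtracting the assays. The part of such a subtraction, or of shared reads, in these opposite directions was not tested. Among 5hmC positions absent from the 5mC table the share was 82.7% of 254, and the same limit holds there.

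**Figure D3:**
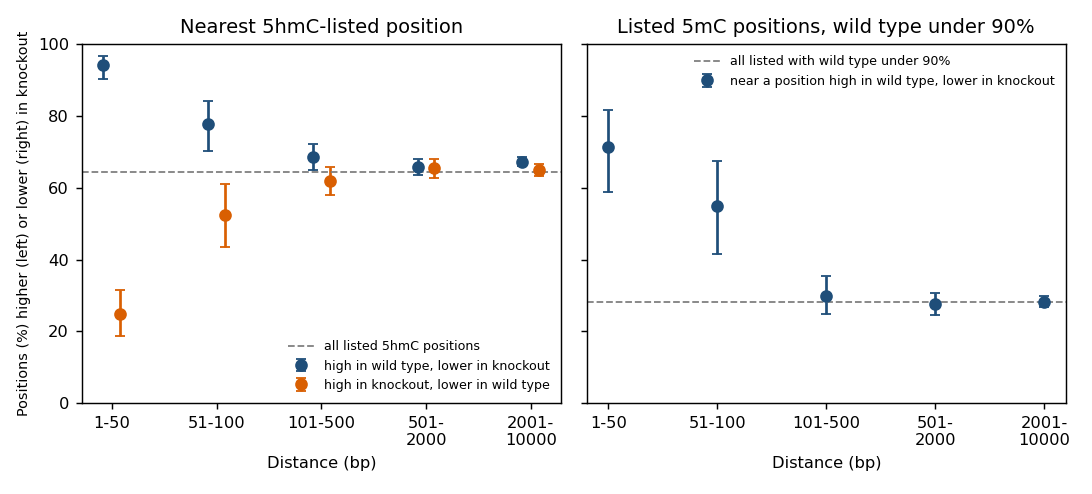
Left, share of nearest 5hmC-listed positions that were higher in the knockout, by distance from positions high in wild type and lower in the knockout (blue) or the reverse (orange). Right, share of listed 5mC positions with wild type under 90% that were lower, by distance from the blue set; points carry exact 95% intervals, dashed lines are the shares over all such positions (64.3% and 28.2%), and departures fade beyond 100 bp.

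Most positions stood alone. The median distance to the next position of the set was 40581 bp, and 95.8% had no other within 500 bp. There were 272 pairs and 38 clusters of at least 3, which held 134 positions (0.822%). Clusters were short, with a median span of 51 bp, and knockout levels within pairs and clusters differed by a median of 6.67 points. The 4 other listed 5mC positions inside these clusters were all lower as well.

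The largest cluster held 8 CpGs within 86 bp on chromosome 15, from 76566363 to 76566448, 6503 bp from the long non-coding gene Gm35739. Its levels were 92.3 to 96.1% in wild type and 68.4 to 75.8% in the knockout per the authors' deposited table. Of the 4 clusters of 5 CpGs, that on chromosome 4 from 93870992 to 93871000 fell furthest, from 91.7 to 100% to 12.5 to 36.4% in the authors' deposited table, 6757 bp from Gm32035. The cluster on chromosome 16 from 73148079 to 73148115, inside the long non-coding gene 4930500H12Rik, had levels of 92.1 to 95.3% and 66.7 to 75.5% (smallest q = 0.728, the authors' deposited table). On chromosome 10 from 22734872 to 22735221, 2206 bp from Tbpl1, levels were 98.2 to 100% and 77.4 to 85.9% per the authors' deposited table. On chromosome 7 from 64127497 to 64127545, 3329 bp from Gm45988, they were 98.6 to 100% and 84.2 to 88.3% per the authors' deposited table. None of these 5 clusters has a replicate, and CpGs of a cluster are not independent.

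Across chromosomes the share of the set varied little except on chromosome 17. It made up 28.6 to 36.99% of listed 5mC positions on the other 18 chromosomes and 21.98% on chromosome 17. Positions high in wild type outnumbered the exchanged set 1.44 to 1.88 times elsewhere and 1.09 times on chromosome 17. The median difference ran from -37.5 to -31.76 points over the chromosomes. On chromosome 2 between positions 118031590 and 123975171, 213 of 316 listed positions (67.4%) belonged to the set and 14 to the exchanged set, and 8 of the 46 positions with q under 1 lay there, including those of Spg11. On chromosome 17 between positions 24007287 and 51882623, 239 of 1578 (15.15%) belonged to the set and 294 to the exchanged set. The whole of chromosome 17 had 2871 listed positions and 631 of the set. Outside this stretch its share was thus within the range of the other chromosomes. The set made up 20 of 155 (12.9%) on chromosome 3 between positions 148250605 and 153940889, and 24 of 117 (20.5%) on chromosome 7 between positions 82030751 and 85923756, with 29 and 30 of the exchanged set. All 4 stretches were picked with their values known.

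**Figure D4:**
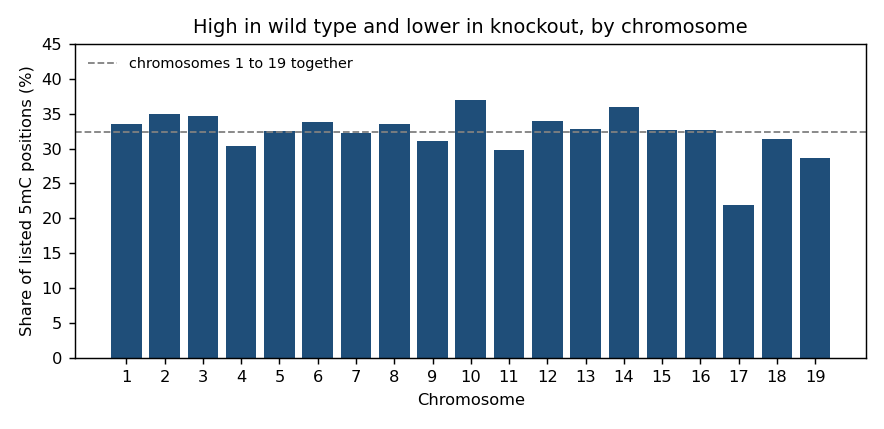
Positions high in wild type and lower in the knockout as percent of all listed 5mC positions, by chromosome, with the share over chromosomes 1 to 19 (32.3%) dashed. Chromosome 17 is lowest at 21.98% and chromosome 10 highest at 36.99%.

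Long genes more often held a position than short ones. Of 33069 genes on chromosomes 1 to 19, 6522 (19.7%) held at least 1 position inside or within 2000 bp, 4682 of them exactly 1 and 195 at least 5. Of genes over 200 kb 83.3% held one, against 7.33% of genes up to 10 kb. Counted per 100 kb of gene and flanks the order turned, with 0.594 positions in the longest class and 0.931 in the shortest.

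The genes with the most positions were all long, from 238.4 to 2241.3 kb. Cdh13, the gene of T-cadherin, held 23 (1.93 per 100 kb), with differences from -73.75 to -12.9 points per the authors' deposited table. Camta1, a calmodulin-binding transcription activator gene, and Cntnap2, a neuronal adhesion gene, held 16 each, or 1.98 and 0.71 per 100 kb. Gm40862 and Snhg14, the host RNA of the Prader-Willi small nucleolar RNAs, held 14 each, or 5.78 and 1.19 per 100 kb. Dab1, a reelin adaptor gene, Grid1, a glutamate receptor family gene, and Rbfox3, the splicing factor gene also known as NeuN, held 13 each, or 1.15, 1.69 and 3.05 per 100 kb. Over all genes the density was 0.735 per 100 kb, above that of Cntnap2 and below that of the other 7, which were picked for their counts.

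Near gene ends Gm52559, a long non-coding gene inside the chromosome 2 stretch, held most, with 4 positions. Its 9 positions in all were at 95.2 to 100% in wild type and 70.2 to 80.65% in the knockout per the authors' deposited table. Other genes with 3 each at their ends were Ikzf3, Kif2b, Ifit1bl2, Entpd4b, Wdr66, Gm52787, Gm39157, Gm35279 and 4930455F16Rik. At Ikzf3, the lymphoid factor gene Aiolos, CpGs at chromosome 11 positions 98464479, 98464481 and 98464483 were each at 100% and 40% in the authors' deposited table, and they can share reads.

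Genes of 11 lists were then examined, which hold 337 entries. Of these 326 matched genes on chromosomes 1 to 19, 314 different ones, and 103 (32.8%) held a position. Lists differ in gene length, so the share of genes is given beside 19.7% of all genes and the density beside 0.735 per 100 kb. A density above 0.735 does not by itself mark a list, since the number of listed positions also differs. The set made up 30.31% of all listed 5mC positions in or near genes. In the lymphoid, erythroid and megakaryocyte, myeloid and stem cell identity lists it made up 29.89%, 26.76%, 21.74% and 21.02%. Shares above 30.31% were those of the DNA methylation (36.67%), lysine acetylation (32.65%) and long neuronal (40.65%) lists. Every position in the lists other than the long neuronal genes had a q of 1 per the authors' deposited table. Most genes named below were picked for the largest falls of their list. Read depth is not given and a large fall may rest on few reads, so these falls do not rank the genes.

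Of 39 stem cell identity genes 15 held 33 positions (0.758 per 100 kb), with a median difference of -33.15 points. Runx1, the transcription factor gene required for blood stem cell emergence, was at 100% and 16.7% at chromosome 16 position 92803154 per the authors' deposited table. Prdm16, a stem cell maintenance factor gene, held 7 positions, the largest loss being from 94.4% to 20% at chromosome 4 position 154467119 per the authors' deposited table. Of its 29 listed 5mC positions, 7 belonged to the exchanged set, as many as to the set. Ikzf2, the gene of Helios, was at 90% and 16.7% at chromosome 1 position 69606827 per the authors' deposited table. Runx1 had 6 listed 5mC positions, 1 in the set and 2 in the exchanged set. Ikzf2 had 2 listed, 1 in the set and 0 in the exchanged set. None of the 33 lay at an end of its own list gene.

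Lineage lists differed in how many genes they contributed. Of 32 lymphoid genes 8 held 26 positions (1.27 per 100 kb, median -38.95 points). Pax5, the B-cell identity factor gene, fell furthest in this list, from 91.7% to 16.7% at chromosome 4 position 44677506 per the authors' deposited table. Its partner gene Ebf1 was at 100% and 33.3% at chromosome 11 position 44818588 per the authors' deposited table. Of 11 listed 5mC positions of Ebf1, 4 belonged to the set and 5 to the exchanged set. For Pax5 these were 4 and 1 of 10. Cd3e, a chain of the T-cell receptor complex, held 3 positions, chosen here after their values were seen, with 91.7 to 100% and 48.15 to 57.1% per the authors' deposited table.

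In the erythroid and megakaryocyte list 10 of 29 genes held 19 positions (1.03 per 100 kb, median -38.46 points). The 3 with the largest losses encode the red cell membrane skeleton. Epb42, the protein 4.2 gene, was at 91.7% and 20% at chromosome 2 position 121032077, inside the chromosome 2 stretch, per the authors' deposited table. Sptb, the beta-spectrin gene, was at 100% and 38.5%, and Epb41, the protein 4.1 gene, at 95.45% and 42.9% per the authors' deposited table. Of 30 myeloid genes 5 held 5 positions (1.06 per 100 kb, median -16.36 points). Gfi1, a repressor gene of granulocyte development, was at 100% and 28.6% at chromosome 5 position 107719955 per the authors' deposited table. Camp, the cathelicidin gene, was at 95.2% and 72%, and Cebpb, a myeloid transcription factor gene, at 100% and 83.6% per the authors' deposited table.

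Of 22 marrow stroma, endothelium and bone genes 5 held 9 positions (0.63 per 100 kb, median -38.1 points). Pecam1, an endothelial adhesion gene also active in blood cells, was at 100% and 33.3%, Pdgfrb at 90.9% and 40%, and Runx2, the osteoblast factor gene, at 100% and 60% per the authors' deposited table.

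Among 25 genes of DNA methylation and its oxidation, with the IDH family, 7 held 11 positions (1.1 per 100 kb, median -33.93 points), namely Dnmt1, Dnmt3a, Dnmt3b, Dnmt3l, Tdg, Mbd2 and Zbtb38. Mbd2, which encodes a reader of methylated CpGs, was at 100% and 36.4%, and Zbtb38, a methyl-CpG binding zinc finger gene, at 100% and 44.4% per the authors' deposited table. Tdg, the glycosylase that excises oxidised 5mC, was at 100% and 50% per the authors' deposited table. The genes Tet1, Tet2, Tet3, Idh1 and Idh2 held no position of the set, as was true of most genes (19.7% of all genes held one). By length, 46.07% of genes over 50 and up to 200 kb held one, the class of Tet1, Tet2 and Tet3. Among genes over 10 and up to 50 kb, the class of Idh1 and Idh2, 19.15% did. Tet2, Idh1 and Idh2 had no listed 5mC position of any kind, Tet1 had 1 and Tet3 had 4.

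Of 28 lysine acetylation genes 8 held 16 positions (0.632 per 100 kb, median -32.02 points). Hdac4, a class IIa deacetylase gene, was at 100% and 16.7% at chromosome 1 position 92120802 per the authors' deposited table. Its relative Hdac5 was at 93.75% and 30%, and Kat6a, an acetyltransferase gene needed for stem cells, at 100% and 25% per the authors' deposited table.

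Of 26 myeloid leukaemia genes 8 held 14 positions (0.651 per 100 kb, median -25.95 points). Beyond Runx1, Etv6, an ETS repressor gene, was at 92.9% and 36.4%, and Smc3, a cohesin gene, at 91.2% and 53.85% per the authors' deposited table. Of 33 cell cycle genes 3 held 6 positions (0.558 per 100 kb, median -42.86 points). Cdk6, a G1 kinase gene, was at 100% and 50%, E2f3 at 100% and 57.1%, and Mcm2, a replication helicase gene, at 100% and 70.97% per the authors' deposited table.

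Of 39 imprinted genes 17 held 22 positions (0.702 per 100 kb, median -37.98 points). Cobl, an actin nucleator gene, was at 100% and 0% at chromosome 11 position 12344944 per the authors' deposited table. Usp29, a ubiquitin protease gene, was at 100% and 20%, and Plagl1, a zinc finger gene, at 100% and 33.3% per the authors' deposited table.

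Of 23 long neuronal genes 22 held 150 positions (0.445 per 100 kb, median -40 points). The set made up 40.65% of the 369 listed 5mC positions of these genes, beside 30.3% of all listed positions in or near genes and 15.8 to 36.7% in the other lists. The 30.3% includes gene ends, where only 1 of these genes held a position of the set. Deeper inside genes the set held 7098 of all 21611 listed positions, a larger share than 30.3%. Pcdh15, a protocadherin gene of hair cells, was at 90% and 0%, and Lsamp and Ptprd, neuronal adhesion genes, each at 100% and 20% per the authors' deposited table. Ctnna3, Cntnap2 and Ntm had a largest loss of the same size, -80 points, and the rule took the 2 with the smaller p.

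**Figure D5:**
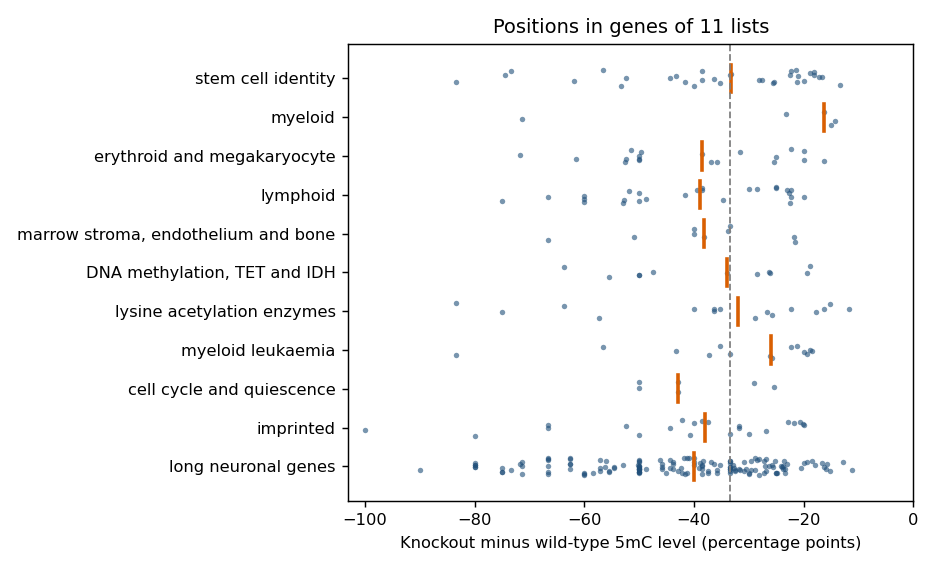
Difference in 5mC level, knockout minus wild type in percentage points, at each position of the set in or near genes of 11 lists; orange bars are list medians and the dashed line is the median of the whole set (-33.33 points). All points are below 0 by the rule, list medians run from -42.86 to -16.36, and vertical scatter within a list has no meaning.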

How the data were processed

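Levels of 5mC and 5hmC in wild-type and HDAC6 KO LSK cells come from 2 deposited tables of the authors' own comparison, made from 4 libraries. Per the file headers the levels of both genotypes are deposited as a fraction from 0 to 1 and printed here as percent, beside their difference and the authors' p-value and q-value. The largest deposited p was 0.01 and the smallest difference 10 points. For aligner, caller, test, coverage filter and read depth nothing is given in the sources used here.

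The submitters' processing notes name GRCm39. All 412 listed 5mC positions inside GRCm38 promoter windows were the C of a CpG (20 of 424 when shifted by 1000 bp), so positions are given as GRCm38. All entries are on the plus strand and none is repeated.

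Positions were assigned to 34610 RefSeq genes of GRCm38 with Python 3.11.15, pandas 2.3.3 and scipy 1.17.1; the location and distance steps were tested on simulated data. Clusters joined positions up to 500 bp apart. No test between genotypes was possible. Named genes were those with q under 0.05, the 6 with most positions overall and at ends (ties kept), the 3 largest losses per list (ties by smaller p), and those of the 5 largest clusters; promoter windows were ranked by number of positions, then by p. The set, lists and rules were chosen with earlier results of these data known. Where a gene was chosen after its values were seen, the text says so. A gene that the rule would name is not reported here.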

Additional observations from a re-analysis of the deposited data

How the results depend on the processing

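With 1 library per group no replicate could be left out. No paired analysis was possible because the groups compared share a single replicate number. Of 44 alternatives 28 left the value within 1.5 times for counts, or within its 95% interval for shares and medians. All entries are on the plus strand, so counting both strands of a CpG once could not move the number of positions or the median difference. Leaving out positions 1 bp beside a 5hmC position could hardly remove any, and the number stayed at 16302. These settings are among the 28 and do not show that the values are stable. The median difference was -35.29 points with a wild-type threshold of 80% and -32.69 with 95%. The share inside or near genes was 52.9% and 59.8% with gene ends of 1000 and 5000 bp and 46.3% for protein-coding genes alone. The share at gene ends was 5.96% and 24.2% with 1000 and 5000 bp, and 10.96% at a threshold of exactly 100%. The share with a 5hmC-listed position nearby was 6.52% within 500 bp and 16.6% within 2000 bp, and 2.76%, 2.21% and 1.82% at thresholds of 80, 95 and 100%. No position had q under 0.01 in the authors' deposited table (0 against 3 under 0.05). The exchanged set held 6572 positions at a threshold of 100%. Among alternatives chosen after the data were seen, 5hmC positions absent from the 5mC table were higher in 82.7%. The number in the set ran from 11076 at exactly 100% to 22033 with 5hmC-listed positions kept.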

Other observations

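Of 26 clusters of 3 CpGs, 3 that lay in genes outside the lists are given; they were chosen after their values were seen, and others lay in genes such as Slc24a3, Prokr2 and Heatr5a. Cd84, a receptor gene of the SLAM family that marks blood progenitors, held 3 CpGs on chromosome 1 from 171859550 to 171859569, at 92.3 to 100% for wild type and 20% in the knockout per the authors' deposited table. Pbx3, a HOX cofactor gene, held 3 on chromosome 2 from 34193492 to 34193599, at 90.5 to 100% and 36.4 to 50% per the authors' deposited table. Scml4, a Polycomb-related gene, held 3 on chromosome 10 from 42893942 to 42894048, at 95.4 to 97.5% and 78.3 to 84.7% per the authors' deposited table. In all 3 clusters the smallest q was 1.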
